A study of Homo sapiens with 9 samples.

Results

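The 10 circadian clock genes described here were PER1, PER2, PER3, CRY1, CRY2, CLOCK, NR1D1, NR1D2, DBP and TEF, taken by gene name from a count table of 37351 genes. All 10 passed the filter on low counts, as did 19250 genes in all. The cells were LNCaP, a human prostate cancer line derived from a metastasis, and every library came from cells starved for some hours in medium without serum or calcium and assigned to recombinant NRG1 at 15 ng/mL, a growth factor that binds the receptor HER3. Harvests at 0, 12 and 24 h gave 3 libraries apiece, which the labels call biological replicates. No cells held for 12 or 24 h without NRG1 are among the 9 libraries, so the ligand and the time in serum-free medium cannot be told apart. The clock time of each harvest is not given in the sources used here, so the hours count from the addition of the ligand. Cells were plated in triplicate wells, and p-values measure the spread between these samples.

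In the circadian clock, CLOCK pairs with BMAL1 (gene symbol ARNTL) and binds E-box sequences in the promoters of the period genes (PER) and cryptochrome genes (CRY), whose proteins return to the nucleus and repress the pair. A second loop runs through the REV-ERB nuclear receptors NR1D1 and NR1D2, which repress ARNTL, and an output branch runs through DBP and TEF, proline- and acid-rich basic leucine zipper (PAR bZIP) factors that bind D-box sequences. In a cycle of about a day, a harvest at 12 h and a harvest at 24 h lie nominally at opposite phases. Harvests at 0 h and 24 h lie at the same phase. In cells that share a phase, a gene that follows such a cycle would move by 12 h and turn back by 24 h. An exception is where both harvests fell where it crosses its mean. Whether the cells shared a phase is not given in the sources used here, and a flat level therefore does not show that a gene lacks a cycle.

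Libraries from 0 h held the most reads, 58267359 to 60985825, against 47016302 to 54605125 in those from later times. Each member had at least 471 reads in every library. All 8 markers of luminal prostate epithelium were detected, with a summed level of 4330 to 4750 CPM (read counts scaled to a common library size) that was lowest at 24 h and highest at 12 h. The endothelial marker PECAM1 and the leukocyte marker PTPRC stayed at or below 0.0927 CPM, and the summed fibroblast markers lay between 24.6 and 28.8 CPM, nearly all of it COL1A1, with 1 read of COL1A2 in all 9 libraries together.

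The levels of 5 clock genes depended on time, and those of the PER genes, CRY2 and CLOCK did not pass the test. When edgeR's F statistic was used to ask whether a level depended on time at all, CRY1, NR1D1, NR1D2, DBP and TEF passed, that is 5 of 10 members beside 25.1% of all genes tested. By 24 h CRY1 and NR1D1 were higher than at 0 h, and NR1D2, DBP and TEF were lower. Against 0 h the 2 REV-ERB genes therefore moved in opposite directions, while both PAR bZIP genes fell. From 12 h to 24 h both REV-ERB log2 changes were negative: NR1D1 at -0.24 did not pass, and NR1D2 at -0.19 passed. A change in the number of cells that express a gene and a change in its RNA per cell cannot be told apart in these bulk samples.

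**Figure D1:**
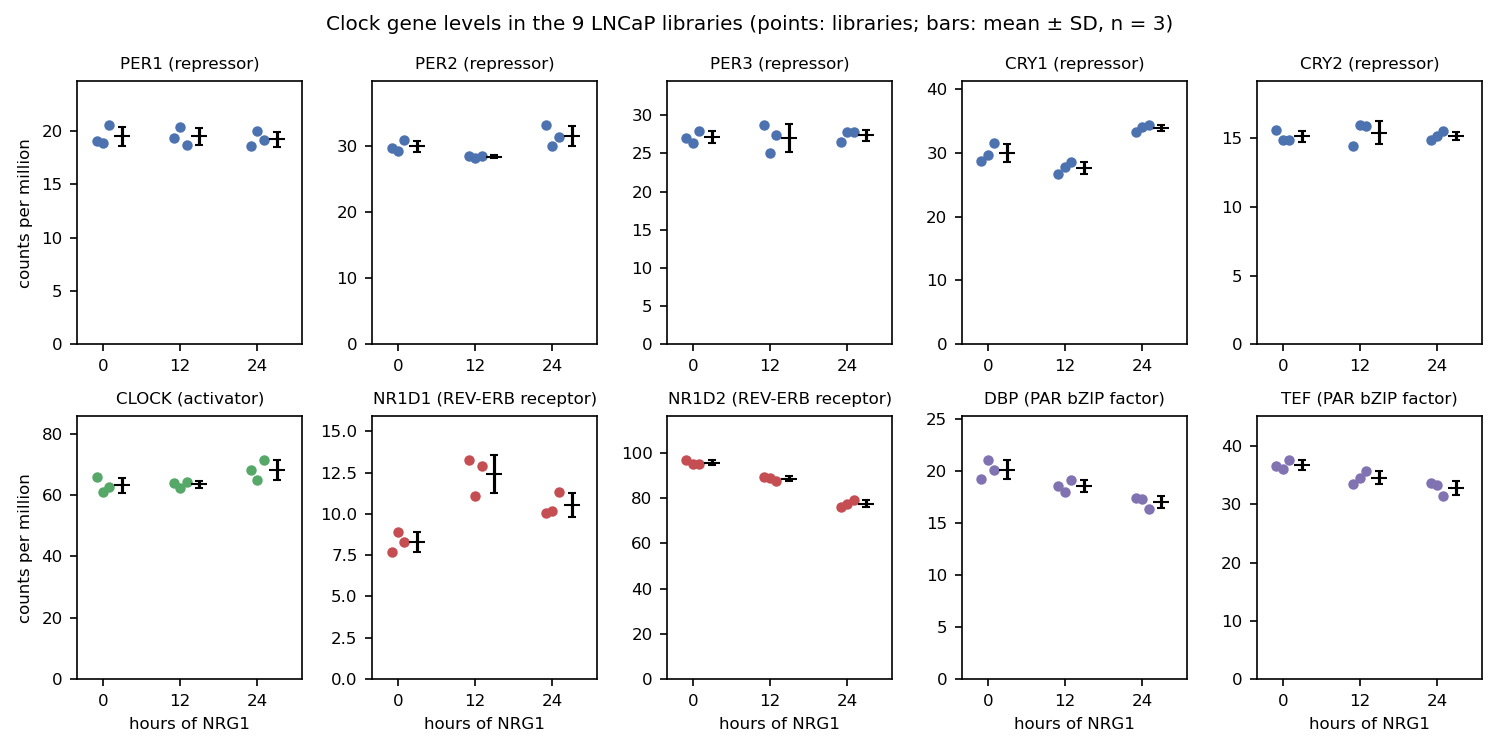
Levels in CPM of the 10 clock genes in each of the 9 libraries against hours of NRG1, with y axes that start at 0. Points are libraries, and the black bars are the mean ± SD of 3. NR1D1 lay between 7.71 and 8.88 CPM before the ligand and between 11.1 and 13.2 CPM after 12 h of it, NR1D2 fell at each step, and PER1, PER3 and CRY2 overlapped at all times.

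The number of members called was close to the background at 12 h and above it at 24 h. A call was an adjusted p of at most 0.05 in edgeR's quasi-likelihood test over all genes tested. At 12 h against 0 h, 2 of 10 members passed, beside 18.7% of all genes, with 1 higher and 1 lower beside 10.6% higher and 8.16% lower. At 24 h against 0 h, 5 of 10 passed beside 21.1%, with 2 higher and 3 lower beside 11.6% and 9.48%. At 24 h against 12 h, 2 of 10 passed beside 6.08%, with 1 higher and 1 lower beside 3.03% and 3.05%. These shares were not matched for read number, and the genes tested included some with fewer reads than any member. The members were also chosen with earlier results of these data known, so the counts only describe them.

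The changes were small. The median size of the log2 change over the 10 members was 0.08 at 12 h against 0 h and 0.14 at 24 h against 0 h, beside 0.13 and 0.14 over all genes tested. None of the 10 reached a change of 1.5-fold with a passing test in any of these comparisons, beside 2.37% of genes at 12 h, 3.31% at 24 h and 0.452% between 24 h and 12 h. With edgeR the count was also 0 at an unadjusted p under the same threshold, and it was 0 with DESeq2. NR1D1 at 12 h came closest, with a log2 change of 0.581 against a limit of 0.585.

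The separation of the replicates was also counted. From 0 h to 12 h, 6 of 10 members had all 3 later libraries on one side of the 3 earlier ones, beside 32.8% of all genes tested. The same held for 5 of 10 at 24 h against 0 h, beside 33.5%, and for 5 of 10 at 24 h against 12 h, beside 24.4%. DBP, CRY1 and NR1D2 were separated in all 3 pairs of times, and PER1, PER3 and CRY2 in none.

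**Figure D2:**
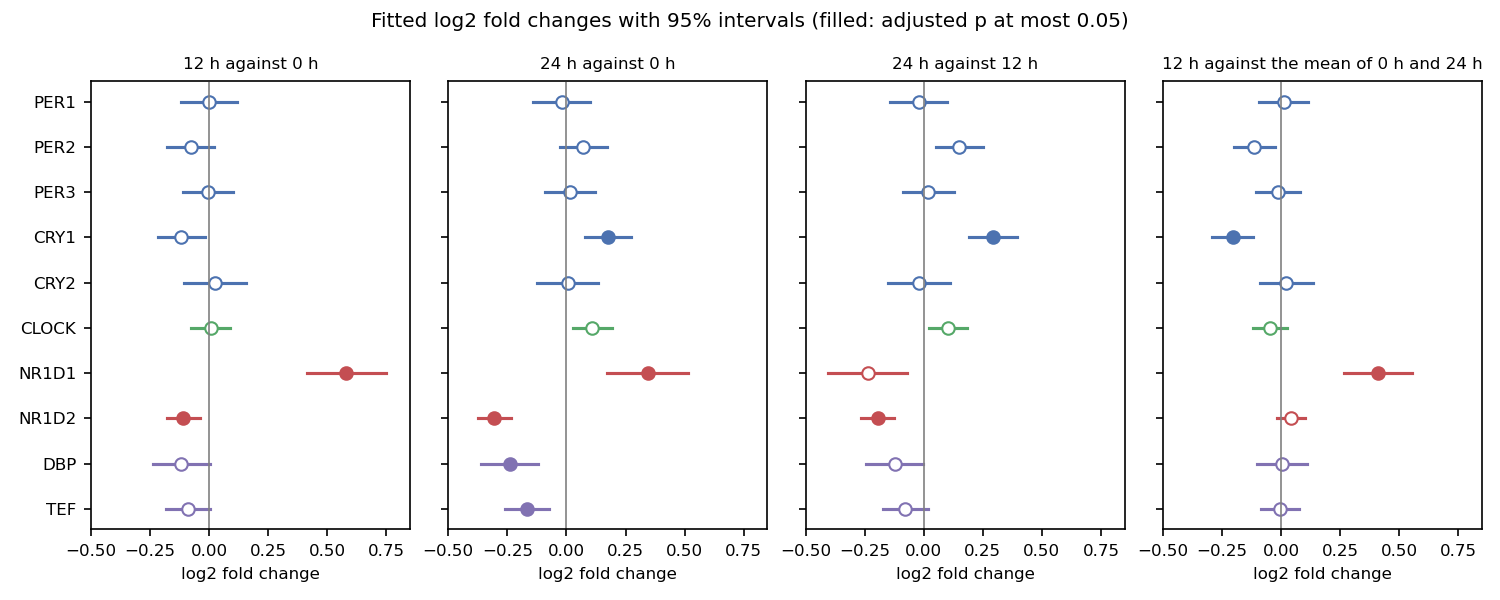
Fitted log2 fold changes (x axis) of the 10 clock genes in the 4 comparisons, with 95% intervals. Filled points passed an adjusted p of at most 0.05. The 2 REV-ERB genes lie on opposite sides of 0 in both comparisons with 0 h, and CRY1 and NR1D1 pass in the comparison of 12 h with the mean of 0 and 24 h.

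Among the repressors, the period genes showed no change that passed. PER1 (ENSG00000179094.16, chr17:8140472-8156506 on GRCh38, minus strand) was at 19.1, 18.9 and 20.5 CPM at 0 h, at 19.4, 20.4 and 18.7 CPM at 12 h, and at 18.5, 19.9 and 19.1 CPM at 24 h. Its libraries overlapped at all 3 times. The log2 change was 0.00 at 12 h (95% interval -0.119 to 0.119) and -0.02 at 24 h (-0.14 to 0.10). PER3 (ENSG00000049246.15, chr1:7784291-7845177, plus strand) was equally flat, at 27.1 ± 0.809 CPM at 0 h, at 27.0 ± 1.84 CPM by 12 h, and 27.4 ± 0.751 CPM by 24 h (SD, n = 3 each). Its intervals were -0.11 to 0.10 at 12 h and -0.09 to 0.12 at 24 h.

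PER2 (ENSG00000132326.12, chr2:238244044-238290102, minus strand) was the period gene with the widest spread over time. It was at 29.8, 29.3 and 30.9 CPM at 0 h, at 28.5, 28.2 and 28.6 CPM at 12 h, and at 33.2, 30.1 and 31.4 CPM at 24 h. The 12 h libraries were the 3 lowest and lay below all others. The log2 difference of 24 h against 12 h was 0.15 ± 0.0492 (SE), with an adjusted p of 0.0635 by edgeR, and it did not pass. It passed under 2 of 16 alternatives, with no scaling factor (0.16, edgeR adjusted p = 0.0426) and without 24 h replicate 2 (0.18, edgeR adjusted p = 0.0476), and the adjusted p of the others reached 0.274.

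Of the cryptochromes, CRY1 changed with time and CRY2 showed no change that passed. CRY1 (ENSG00000008405.12, chr12:106991364-107093549, minus strand), a repressor of CLOCK with BMAL1, was at 28.8, 29.7 and 31.6 CPM at 0 h. It was at 26.6, 27.8 and 28.6 CPM at 12 h and at 33.4, 34.0 and 34.3 CPM at 24 h. All 3 libraries at 24 h lay above all others, and all 3 at 12 h lay below all others. At 12 h the value against 0 h was -0.12 ± 0.0491 (log2, SE) and did not pass (edgeR adjusted p = 0.0938). At 24 h CRY1 rose by 12.9% over 0 h, a log2 change of 0.18 ± 0.0483 (edgeR adjusted p = 0.0071). Between 12 h and 24 h it rose by 22.5%, a log2 change of 0.29 ± 0.0492 (edgeR adjusted p = 0.000112).

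Its paralog CRY2 (ENSG00000121671.12, chr11:45847118-45883248, plus strand) was at 15.6, 14.9 and 14.9 CPM at 0 h, at 14.4, 15.9 and 15.9 CPM at 12 h, and at 14.9, 15.2 and 15.5 CPM at 24 h, with overlap at all times. Its 95% intervals ran from -0.105 to 0.155 at 12 h and from -0.125 to 0.135 at 24 h. The log2 ratio of CRY1 to CRY2 CPM within a library lay between 0.88 and 1.08 at 0 h, between 0.81 and 0.89 at 12 h, and between 1.15 and 1.16 at 24 h, where all 3 libraries had the highest ratios.

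The activator CLOCK (ENSG00000134852.15, chr4:55427903-55546909, minus strand), a transcription factor and partner of BMAL1, was at 65.8, 61.0 and 62.8 CPM at 0 h. It was at 63.9, 62.2 and 64.4 CPM at 12 h and at 68.0, 65.1 and 71.4 CPM at 24 h. The 24 h libraries lay above the 12 h libraries and overlapped those at 0 h. The log2 change at 24 h against 0 h was 0.11 ± 0.0404 and just missed the threshold (edgeR adjusted p = 0.0505). It passed under 5 of 16 alternatives, namely with median-of-ratios size factors (edgeR adjusted p = 0.0482), with the replicate number as a block (0.0385), and when 0 h replicate 1 (0.0132), replicate 2 of 12 h (0.0438) or replicate 2 of 24 h (0.0231) was left out. The adjusted p of the other alternatives, by edgeR or DESeq2, reached 0.267, when 24 h replicate 3 was left out.

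TMEM165, a gene on the opposite strand that shares 76 bases of exon with CLOCK, held 140% of its counts. Its log2 value was 0.09 ± 0.0352 at 24 h against 0 h (edgeR adjusted p = 0.0846). Its part in the value of CLOCK was not tested.

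Against 0 h the REV-ERB receptors moved apart. NR1D1 (ENSG00000126368.6, chr17:40092793-40100589, minus strand), which encodes REV-ERB alpha, a heme-binding repressor of ARNTL, was at 7.71, 8.88 and 8.29 CPM at 0 h. It was at 13.2, 11.1 and 12.9 CPM at 12 h and at 10.04, 10.2 and 11.3 CPM at 24 h. Every later library lay above every 0 h library, and 12 h and 24 h overlapped through 12 h replicate 2 and 24 h replicate 3. NR1D1 rose by 49.6% at 12 h, a log2 change of 0.58 ± 0.0828 (edgeR adjusted p = 1.81e-06), and was 26.8% above 0 h at 24 h, with a log2 change of 0.34 ± 0.0841 (edgeR adjusted p = 0.00242). From 12 h to 24 h the value was -0.24 ± 0.0821 and did not pass (edgeR adjusted p = 0.082). Without 12 h replicate 2 it was -0.31 and passed (edgeR adjusted p = 0.0371), the only 1 of 16 alternatives to do so, and the adjusted p of the others reached 0.324. Without that library, or without 0 h replicate 2, the rise at 12 h also exceeded 1.5-fold.

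NR1D2 (ENSG00000174738.13, chr3:23945286-23980617, plus strand), which encodes the paralog REV-ERB beta, was at 96.9, 95.2 and 95.3 CPM at 0 h. It was at 89.6, 89.0 and 87.5 CPM at 12 h and at 76.0, 77.6 and 79.0 CPM at 24 h. The 3 times were fully separated, with the 24 h libraries lowest, and the coefficient of variation within a time was at most 1.97%. NR1D2 fell by 7.37% at 12 h, a log2 change of -0.11 ± 0.0344 (edgeR adjusted p = 0.0203). At 24 h it fell by 19.1% against 0 h, a log2 change of -0.31 ± 0.0347 (edgeR adjusted p = 1.39e-08), and it fell by 12.6% against 12 h, a log2 change of -0.19 ± 0.0349 (edgeR adjusted p = 0.000286).

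The call of NR1D2 at 12 h was the least firm of these. It was lost without 0 h replicate 1 (edgeR adjusted p = 0.0707), without 12 h replicate 1 (0.0525), 2 (0.062) or 3 (0.0964), and with all genes that had a count (0.0512), while its value stayed between -0.0978 and -0.114 in these fits.

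The log2 ratio of NR1D1 to NR1D2 CPM within a library was -3.65, -3.42 and -3.52 at 0 h. It was -2.76, -3.00 and -2.77 at 12 h and -2.92, -2.93 and -2.80 at 24 h. All 6 later libraries lay above the 3 at 0 h, and those at 12 and 24 h overlapped.

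Genes on the opposite strand overlap both REV-ERB genes, and the strand setting of the counting is not given in the sources used here. THRA, a thyroid hormone receptor gene whose 3′ end overlaps that of NR1D1, held 649% of the counts of NR1D1 and shared 473 of its 2630 bases of exon (18.0%). THRA was at 65.9, 65.9 and 68.0 CPM at 0 h, at 69.3, 69.2 and 64.6 CPM at 12 h, and at 65.8, 65.9 and 66.8 CPM at 24 h. These libraries overlapped at all times, and the log2 value of THRA at 12 h was 0.02 ± 0.038 (edgeR adjusted p = 0.731). NKIRAS1, which shares no exon bases with NR1D2 and held 13.3% of its counts, had a log2 value of -0.01 ± 0.0728 at 24 h against 0 h (edgeR adjusted p = 0.945).

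**Figure D3:**
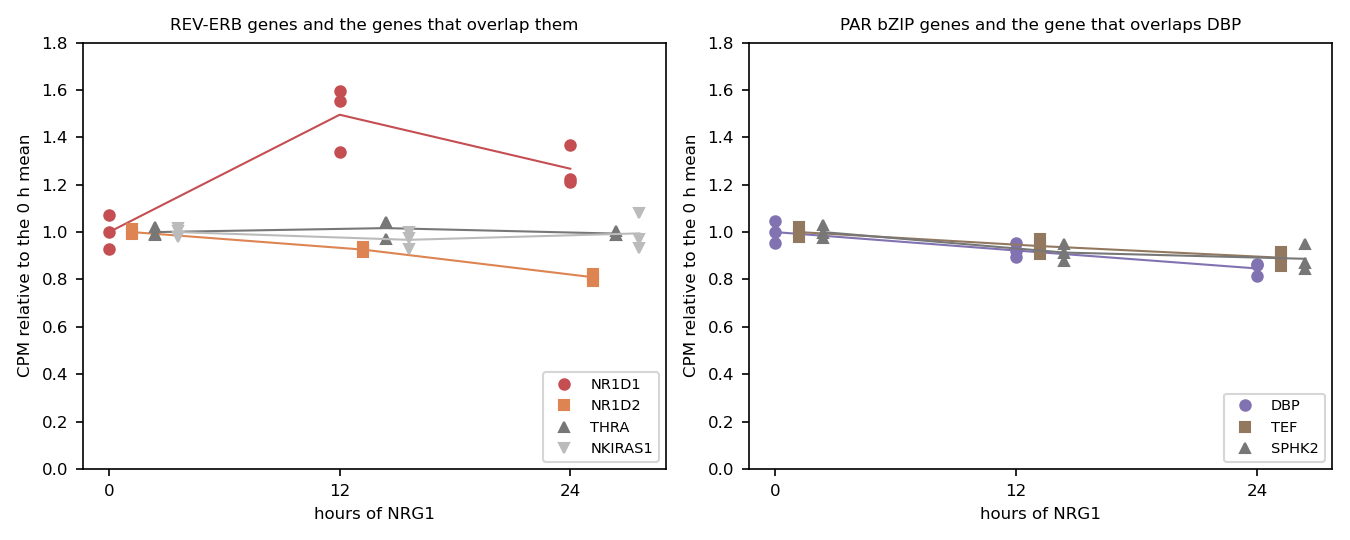
CPM in each library divided by the 0 h mean of the same gene, against hours of NRG1, for the REV-ERB genes with the genes that overlap them and for the PAR bZIP genes with SPHK2. Points are libraries, lines join the means of 3, and genes are set slightly apart along the x axis. THRA stayed near its 0 h mean while NR1D1 rose, and SPHK2 fell with DBP at 24 h.

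The PAR bZIP factors both fell by 24 h. DBP (ENSG00000105516.11, chr19:48630030-48637379, minus strand), a D-box activator and a classic output of the clock, was at 19.2, 21.0 and 20.1 CPM at 0 h. It was at 18.5, 17.9 and 19.1 CPM at 12 h and at 17.4, 17.3 and 16.4 CPM at 24 h. The 3 times did not overlap in CPM, though 0 h and 12 h only narrowly so, with 0 h highest and 24 h lowest. The value at 12 h was -0.12 ± 0.0585 (log2, SE) and did not pass (edgeR adjusted p = 0.177). At 24 h DBP fell by 15.4%, a log2 change of -0.24 ± 0.0591 (edgeR adjusted p = 0.00246).

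SPHK2, a sphingosine kinase gene on the opposite strand, held 157% of the counts of DBP and shared 661 of its 6485 bases of exon (10.2%). Its mean was 31.2 CPM before the ligand, 28.5 CPM by 12 h and 27.6 CPM by 24 h. SPHK2 fell at 24 h as well, by a log2 change of -0.17 ± 0.0514 (edgeR adjusted p = 0.0136). Its part in the fall of DBP was not tested.

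TEF (ENSG00000167074.15, chr22:41367333-41399326, plus strand), a second D-box activator, was at 36.6, 36.1 and 37.6 CPM at 0 h. It was at 33.4, 34.6 and 35.8 CPM at 12 h and at 33.6, 33.3 and 31.5 CPM at 24 h. All later libraries lay below those at 0 h, and 12 h and 24 h overlapped. At 24 h TEF fell by 10.8%, a log2 change of -0.17 ± 0.0461 (edgeR adjusted p = 0.0076), and the value at 12 h, -0.09 ± 0.0458, did not pass (edgeR adjusted p = 0.196). The call at 24 h was lost without 0 h replicate 3 (edgeR adjusted p = 0.0507) or 24 h replicate 3 (0.059). The log2 ratio of DBP to TEF CPM stayed between -0.95 and -0.78 in all 9 libraries.

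A gene that moved by 12 h and came back by 24 h would differ at 12 h from the mean of 0 and 24 h, and a gene that moved steadily would not. A gene that moved by 12 h and then stayed level, or that moved only after 12 h, would differ too. Passing alone therefore does not show a return. In this comparison 2 of 10 members passed, beside 9.87% of all genes tested. NR1D1 was above the mean of 0 and 24 h at 12 h, by a log2 value of 0.41 ± 0.0709 (edgeR adjusted p = 0.000127). CRY1 was below it, by -0.21 ± 0.0428 (edgeR adjusted p = 0.00132). Neither was back at its 0 h level at 24 h, since both also passed in the comparison of 24 h with 0 h. The step from 12 h to 24 h did not pass for NR1D1 (edgeR adjusted p = 0.082). For CRY1 the step from 0 h to 12 h did not pass (edgeR adjusted p = 0.0938).

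The other 3 members called at 24 h gave values near 0 in the same comparison. DBP was at 0.00 (95% interval -0.101 to 0.108), TEF at -0.01 (-0.087 to 0.076) and NR1D2 at 0.04 (-0.019 to 0.103), and none passed. Of the period genes, PER2 was at -0.11 ± 0.0426 and did not pass (edgeR adjusted p = 0.0872), while PER1 was at 0.01 and PER3 at -0.01. With samples at 3 times only, a daily cycle cannot be told apart from other courses in time.

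Promoters of the 5 genes called at 24 h are shown to give the E-box and D-box letters that CLOCK with BMAL1 and the PAR bZIP factors are known to bind. Each window is the 250 bases before a RefSeq start on GRCh38.p14, read 5′ to 3′ along the gene, and RefSeq windows were found for all 10 members, 15 in total. Motifs were searched on both strands: the E-box CACGTG, its variant CACGTT, the D-box as TTATGTAA or TTACGTAA, the cAMP element TGACGTCA and the ROR element, to which the REV-ERB receptors bind. Capitals mark matches, and a match to the other strand is printed as its reverse complement.
CRY1 (chr12:107093550-107093799, minus strand): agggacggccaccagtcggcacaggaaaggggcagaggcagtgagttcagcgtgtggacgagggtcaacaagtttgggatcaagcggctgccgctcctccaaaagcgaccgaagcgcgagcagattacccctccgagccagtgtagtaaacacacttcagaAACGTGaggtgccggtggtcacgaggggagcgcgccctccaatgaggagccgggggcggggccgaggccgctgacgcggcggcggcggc
NR1D1 (chr17:40100590-40100839, minus strand): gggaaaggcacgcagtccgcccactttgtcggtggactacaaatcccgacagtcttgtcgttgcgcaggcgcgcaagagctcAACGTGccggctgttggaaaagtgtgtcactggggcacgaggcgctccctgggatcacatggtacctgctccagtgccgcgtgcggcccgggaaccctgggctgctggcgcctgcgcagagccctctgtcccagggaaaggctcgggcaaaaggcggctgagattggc
NR1D2 (chr3:23945871-23946120, plus strand): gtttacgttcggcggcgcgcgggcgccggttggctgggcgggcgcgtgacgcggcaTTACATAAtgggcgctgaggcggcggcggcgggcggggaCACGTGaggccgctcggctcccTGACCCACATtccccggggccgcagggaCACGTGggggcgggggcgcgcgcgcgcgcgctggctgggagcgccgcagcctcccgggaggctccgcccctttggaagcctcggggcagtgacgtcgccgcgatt
TEF (chr22:41381692-41381941, plus strand): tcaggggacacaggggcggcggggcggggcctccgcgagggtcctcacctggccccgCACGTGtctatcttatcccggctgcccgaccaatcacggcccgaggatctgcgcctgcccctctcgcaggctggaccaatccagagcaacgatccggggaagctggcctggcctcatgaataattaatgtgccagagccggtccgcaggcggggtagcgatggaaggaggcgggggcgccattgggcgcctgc
DBP (chr19:48637380-48637629, minus strand): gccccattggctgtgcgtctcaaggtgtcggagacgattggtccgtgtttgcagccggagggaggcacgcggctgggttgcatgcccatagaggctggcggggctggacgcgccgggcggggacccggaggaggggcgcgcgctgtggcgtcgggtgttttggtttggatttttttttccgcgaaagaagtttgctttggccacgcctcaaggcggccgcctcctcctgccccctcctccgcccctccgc
CRY1 and NR1D1 each held the variant E-box on the opposite strand. The window of NR1D2 belongs to its second start, which is not the start of its main transcript. That window held 2 E-boxes, 1 D-box and 1 ROR element. The window at its first start, that of the main transcript, held none of the motifs. TEF held 1 E-box at each of its 2 starts, and DBP held none in its window. No 2 motifs overlapped in these windows.

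Among 35116 such windows of all genes, the E-box was found in 6.34%, its variant in 4.55%, the D-box as TTATGTAA in 0.834% and as TTACGTAA in 0.105%, the cAMP element in 1.65% and the ROR element in 0.57%. Of the 15 windows of the members, 4 held the E-box, 5 its variant, 2 the D-box TTATGTAA and 2 the ROR element. The E-box was held by genes that fell (TEF, and NR1D2 at its second start), and its variant by genes that rose (CRY1, NR1D1). DBP, which also fell, held neither. Genes that did not pass held these letters too, among them PER1, with an E-box, and PER2, with its variant. A match describes letters in the window and not binding.

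Levels can be compared between genes per length. In CPM per kilobase of annotated exon at 0 h, NR1D2 was highest at 16.5 ± 0.165, followed by TEF at 7.82 ± 0.165, CRY1 at 6.28 ± 0.292, CLOCK at 5.48 ± 0.214 and PER2 at 4.23 ± 0.121 (SD, n = 3 each). PER3 at 3.34 ± 0.0996, NR1D1 at 3.15 ± 0.223 and DBP at 3.10 ± 0.141 followed, and the libraries of NR1D1 overlapped those of PER3 and of DBP. PER1 at 2.78 ± 0.129 and CRY2 at 2.44 ± 0.0661 were lowest. The other neighbours in this order did not overlap.

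The order shifted with time in places. At 12 h NR1D1 stood at 4.72 ± 0.438 CPM per kilobase, above PER2 at 4.01 ± 0.0267 and without overlap. With the length of the main transcript, PER2 was at 4.45 ± 0.0296 at 12 h and overlapped NR1D1, whose lowest library was at 4.22. At 24 h CRY1 at 7.09 ± 0.104 and TEF at 6.98 ± 0.245 overlapped. The order also depended on the length used, most of all for DBP. With the length of its main transcript, 2170 bases in place of 6485, DBP was at 9.25 ± 0.422 at 0 h. Its mean was below only those of NR1D2 and CRY1, and its libraries overlapped those of CRY1. On the same scale CRY1, at 10.1 ± 0.468, stood above TEF, at 8.40 ± 0.177. PER1, at 4.17 ± 0.193, and CRY2, at 3.66 ± 0.0992, stood above NR1D1, which was lowest at 3.15 ± 0.223.

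**Figure D4:**
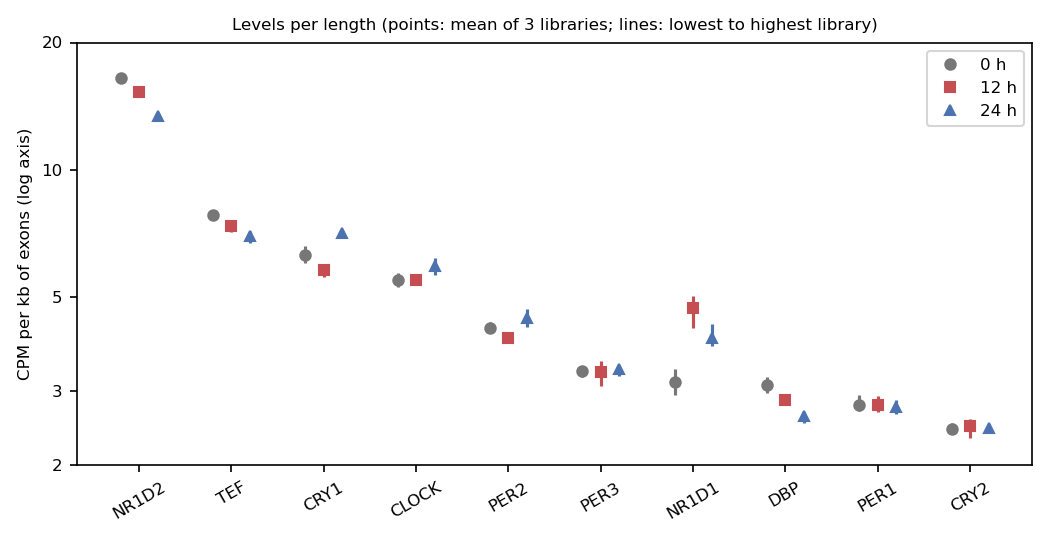
Mean CPM per kilobase of annotated exon (log axis) of the 10 clock genes at 0, 12 and 24 h, in the order of their 0 h level. Points are means of 3 libraries and lines run from the lowest to the highest library. NR1D2 stayed highest at 13.4 or more at all times, and with this length NR1D1 passed PER2 at 12 h.

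Of 23 further clock genes listed with the members, 22 were tested, and FBXL21P had no row under that name. Against 0 h, 7 were higher and 2 lower at 12 h, and again 7 were higher and 2 lower at 24 h, beside 10.6% higher and 8.16% lower of all genes tested at 12 h and 11.6% and 9.48% at 24 h. At 24 h against 12 h, 1 was lower and none was higher, beside 3.05% and 3.03% of all genes tested. The median log2 change of the 22 was 0.11 at 12 h and 0.05 at 24 h, beside -0.01 at both times over all genes tested.

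The E-box repressor BHLHE40 (DEC1) was highest at 12 h. It was at 93.3, 96.3 and 94.1 CPM at 0 h, at 122, 127 and 118 CPM at 12 h, and at 109, 107 and 96.4 CPM at 24 h. The 12 h libraries were the 3 highest. BHLHE40 rose at 12 h by 0.37 ± 0.039 (log2, edgeR adjusted p = 4.38e-09), was 0.14 ± 0.0392 above 0 h at 24 h (edgeR adjusted p = 0.0107) and fell between them by 0.24 on the log2 scale (edgeR adjusted p = 9.87e-05). Its paralog BHLHE41 (DEC2) averaged 0.669 CPM before the ligand and 1.18 CPM after 12 h, with 37 to 63 reads in a library, and rose by 0.82 ± 0.243 (edgeR adjusted p = 0.0139), past 1.5-fold. At 24 h its value of 0.55 ± 0.247 did not pass (edgeR adjusted p = 0.117).

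Of the partners and paralogs of CLOCK, NPAS2 and ARNTL2 rose. ARNTL, which encodes BMAL1, did not pass at 12 h (0.23 ± 0.0904, edgeR adjusted p = 0.0801) or at 24 h (0.12 ± 0.0912, edgeR adjusted p = 0.395), with 7.61 to 10.6 CPM in the 9 libraries. NPAS2, which can take the place of CLOCK, rose from 2.53 ± 0.00872 CPM to 3.56 ± 0.332 CPM by 12 h and 4.10 ± 0.261 CPM by 24 h (SD, n = 3 each). Its log2 change at 24 h was 0.70 ± 0.129 (edgeR adjusted p = 7.87e-05), past 1.5-fold. ARNTL2, a paralog of ARNTL, rose at 24 h by 0.39 ± 0.0689 (edgeR adjusted p = 5.06e-05).

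HLF, the remaining PAR bZIP factor, moved opposite to DBP and TEF. It was at 6.76, 5.31 and 6.25 CPM at 0 h, at 8.28, 7.21 and 8.28 CPM at 12 h, and at 9.06, 8.90 and 7.53 CPM at 24 h. All later libraries lay above those at 0 h. HLF rose by 0.37 ± 0.0984 at 12 h (log2, edgeR adjusted p = 0.00552) and by 0.47 ± 0.0979 at 24 h (edgeR adjusted p = 0.000375). NFIL3, a repressor that competes for D-boxes, was at -0.15 ± 0.0679 at 12 h and 0.06 ± 0.0671 at 24 h, and neither passed (edgeR adjusted p = 0.144 and 0.625). CIART, an E-box repressor, was at 0.09 and -0.11 and did not pass (edgeR adjusted p = 0.449 and 0.32).

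Of the other listed genes, TSC22D3, which encodes a leucine zipper protein induced by glucocorticoids, fell by 0.36 at 12 h and by 0.46 at 24 h on the log2 scale. CSNK1D, a kinase of the PER proteins, fell by 0.11 and 0.10. NOCT, which encodes nocturnin, rose by 0.50 and 0.40, and KLF10 by 0.29 and 0.27. NAMPT, an enzyme of NAD salvage, rose by 0.13 at 12 h, and USP2, a deubiquitinating enzyme, by 0.23 at 24 h. These changes passed at the times named, and none reached 1.5-fold. The receptors RORA and RORB, which activate from the element that REV-ERB receptors bind, did not pass at either time.

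**Figure D5:**
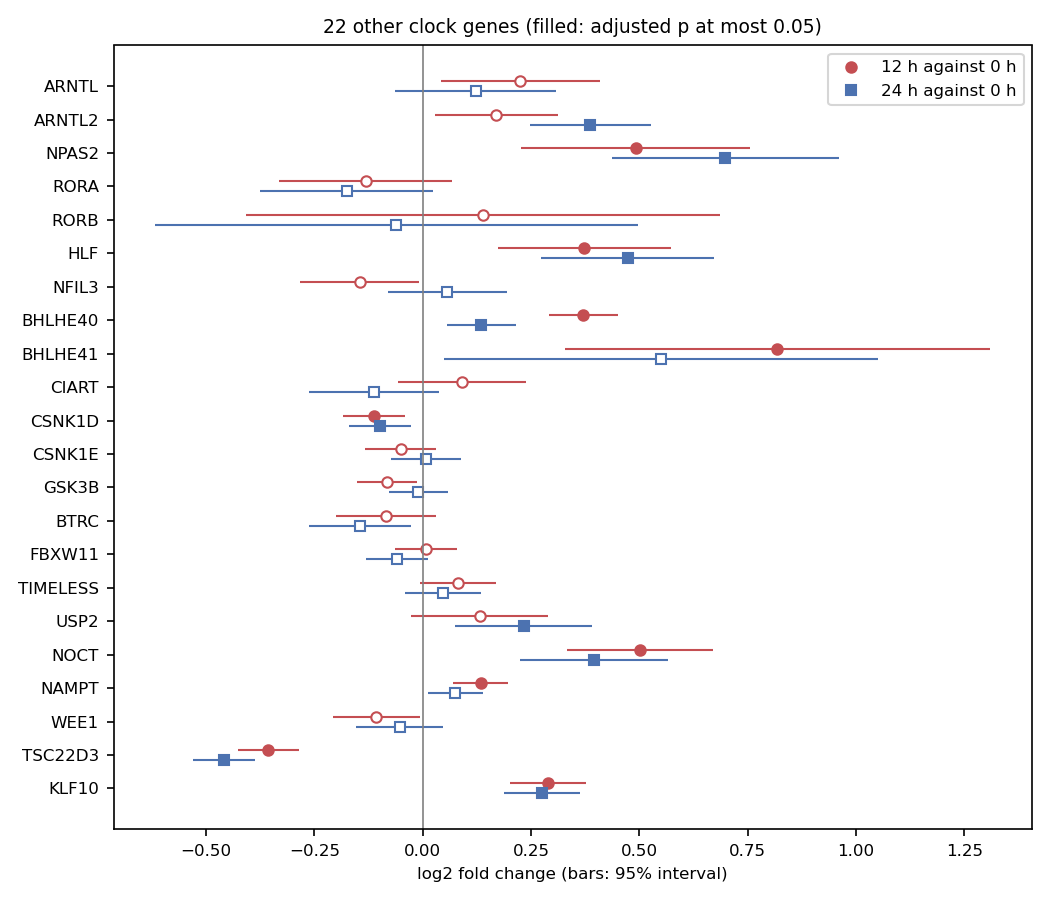
Fitted log2 fold changes (x axis) of the 22 other clock genes at 12 h (circles) and 24 h (squares) against 0 h, with 95% intervals. Filled points passed an adjusted p of at most 0.05. NPAS2, HLF, NOCT, BHLHE40 and KLF10 are higher and TSC22D3 and CSNK1D lower at both times.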

How the data were processed

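RNA sequencing was performed on 9 libraries of NRG1-treated LNCaP cells. Per the methods and the submitters' processing notes, adapters were removed with Cutadapt, reads were checked with FastQC and aligned to GRCh38.p13 with STAR, and featureCounts counted reads per gene with GENCODE annotation. The authors left out 1 LNCaP library at time 0 for quality. Its treatment is not named, but the captions give 3 replicates throughout for NRG1 and fewer in places for ASPN, the other ligand studied. The authors deposited raw counts as whole numbers, and 14 empty columns of the table were not used. Members and gene lists were chosen with earlier results of these data known.

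Genes were kept with filterByExpr, libraries were scaled by TMM, and all 9 were fitted together with edgeR 4.0.16 in R 4.3.3 (robust quasi-likelihood test). Benjamini-Hochberg adjustment of p-values covered the 19250 genes tested. CPM are on TMM-scaled sizes, and standard errors and 95% intervals come from the fit. All members were named, as were the listed partner genes and any other listed clock gene past 1.5-fold; further listed genes that passed were named after their values were seen. Some listed genes are not reported here, and counts of the list leave them out. Overlapping genes were named where they held over 10% of a member's counts. Gene positions are those of the deposited table, and exon lengths are from GENCODE annotation of GRCh38. Depth of 47016302 to 60985825 counts per library gives a precision that covers counting error only. Alternatives were DESeq2 1.42.0, other scalings and filters, a replicate block, only the 6 libraries compared, a 1.5-fold threshold and each library left out. The method was tested on simulated data.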

Additional observations from a re-analysis of the deposited data

Results flagged for a closer look

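The 3 clock genes CRY1, NR1D2 and BHLHE40 had effects at 24 h and 12 h, both against 0 h, that differed from each other by the direct edgeR test of 24 h against 12 h. For CRY1 the difference was 0.293 on the log2 scale (adjusted p = 0.000112), with all 3 libraries at 24 h above all 3 at 12 h. For NR1D2 it was -0.195 (adjusted p = 0.000286) and for BHLHE40 -0.235 (adjusted p = 9.87e-05), with no overlap of NR1D2 between the 2 times.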

How the results depend on the processing

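Of 630 values of members under the 16 alternatives, 577 kept their direction and their side of the threshold, 38 changed sign, 8 passed only under the alternative and 7 no longer passed. No value that had passed changed sign. Those that changed sign lay near 0. At 12 h against 0 h, PER1 was at -0.0104 and CLOCK at -0.00471 with no scaling factor, and PER1 at -0.00514 with at least 10 counts in every library, -0.000135 with the replicate block and -0.000307 with only the 6 libraries compared. At 24 h against 0 h, CRY2 was at -7.78e-05 with at least 10 counts. At 12 h against the mean of 0 and 24 h, PER1 was at -0.000931 and DBP at -0.00787 with no scaling factor. With 1 library left out, values at 12 h against 0 h ran from -0.0292 to 0.0414 for PER1, -0.0463 to 0.0519 for PER3 and -0.0174 to 0.041 for CLOCK. At 24 h against 0 h they ran from -0.048 to 0.0224 for PER1, -0.00457 to 0.0414 for PER3 and -0.00903 to 0.0314 for CRY2. At 24 h against 12 h they ran from -0.051 to 0.014 for PER1, -0.0322 to 0.0658 for PER3 and -0.0655 to 0.0073 for CRY2. At 12 h against the mean of 0 and 24 h they ran from -0.0216 to 0.0401 for PER1, -0.0561 to 0.042 for PER3, -0.00235 to 0.0704 for CRY2, -0.0185 to 0.0269 for DBP and -0.0268 to 0.0199 for TEF. The number of members called at 12 h fell from 2 to 1 with all genes that had a count, and was 1 to 2 with 1 library left out. With the 1.5-fold threshold it was 0 in each of the 4 comparisons.

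Libraries with the same replicate number did not deviate together (correlations of -0.0367 to 0.0295), and 3 of 9 correlated best with their own number. With the replicate block, 2, 6, 2 and 2 members were called in the 4 comparisons, in place of 2, 5, 2 and 2. The number of all genes called at 24 h against 12 h was 1171, and 776 without 12 h replicate 1, 685 without 12 h replicate 2 and 757 without 24 h replicate 3. At 12 h against the mean of 0 and 24 h it was 1900, and 1179 and 1003 without 12 h replicate 1 or 2. The causes were not tested.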
